A study of Mus musculus with 14 samples.

Results

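The 7 genes described here are *Myc*, *Mycn*, *Mycl*, *Max*, *Mnt*, *Mxd3* and *Mga*, the MYC family and partners of MAX. They were taken by gene symbol from count tables of 52459 genes, and the m6A peaks on their exons were taken from the deposited peak lists. All 7 reached a mean of at least 1 FPKM (counts scaled by exon length and by the total of the library) at 0 h, as did 11869 of all genes. The cells were E14Tg2a mouse embryonic stem cells (mESCs), a line grown on gelatin with LIF, either WT or METTL14 R255K. In R255K cells the codon for the R255 residue of METTL14 (an arginine in this subunit of the m6A methyltransferase) had been changed to lysine by CRISPR-Cas9, and the cells came from isolated colonies. For mRNA decay, both genotypes were given 5 µg/ml actinomycin D, which blocks transcription, and sequenced at 0, 4 and 8 h with 1 library per genotype and time. For MeRIP-seq, which sequences RNA fragments pulled down with an m6A antibody beside the input RNA, there were 2 IP and 2 input libraries per genotype and 1 deposited peak list per genotype.

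MYC, MYCN and MYCL are basic helix-loop-helix leucine zipper proteins that bind DNA as dimers with MAX and activate genes of growth, ribosome production and metabolism. MNT and the MXD proteins pair with the same MAX and recruit SIN3 and histone deacetylase corepressors, so that activators and repressors share 1 partner. MGA is a large protein that also pairs with MAX and holds together the PRC1.6 repressor complex, which keeps germ line genes silent in mESCs. MYC proteins support self-renewal of mESCs, *Myc* mRNA is a well-known short-lived transcript, and m6A on an mRNA often marks it for decay.

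Each genotype and time had 1 library, so no test was run and no p-value is given. The 95% intervals are exact Poisson or binomial intervals, or delta-method intervals for half-lives, and cover counting error only. The libraries held between 13812160 and 18813640 counts. A share left is the level at 4 or 8 h divided by that at 0 h, both scaled to the library total, so it compares a transcript with the rest of its library and not with a spike-in. The R255K 0 h library differed from the WT one by base composition: genes with AT-rich exons were lower and genes with GC-rich exons higher. Genes on chromosome 11 had a median log2 ratio of 0.53 at 0 h (984 genes). *Mettl14* had 681 counts in WT and 299 in R255K cells at 0 h, which does not check a change of 1 codon. The 10 mESC markers summed to between 3842 and 6068 CPM in WT and between 3397 and 4932 CPM in R255K libraries, with none at 0. Of these, 1 was over 1.5-fold higher and 2 were lower in R255K cells at 0 h, against 17% and 15.7% of all genes. Their median log2 ratio was −0.31. The 8 fibroblast markers summed to between 14.5 and 20.7 CPM in WT and between 41.7 and 52.0 CPM in R255K libraries, with *Lum* at 0 in all and *Postn* at 0 to 2 counts. In the same list *Col1a1* went from 9 counts in WT to 150 in R255K cells at 0 h, *Col1a2* from 3 to 76 and *Thy1* from 81 to 188. *Lum*, *Postn*, *Col1a1* and *Col1a2* were named after their values were seen. The 8 2-cell-like markers summed to at most 0.334 CPM in WT and to between 8.76 and 15.7 CPM in R255K libraries. Of 5 primitive endoderm markers at the FPKM minimum, 0 were higher and 2 lower at 0 h. Among 3 ectoderm and mesoderm markers, 1 was higher (*Nes*, 1.84 FPKM in WT and 6.39 in R255K cells) and 1 lower (*Sox1*, 13.4 and 1.76 FPKM). The part of these differences in the values of the 7 genes was not tested.

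m6A peaks lay on 6 of the 7 genes in both genotypes, and *Mxd3* had none in either list. Among genes at the FPKM minimum, 57.4% had an exonic peak in WT and 43.6% in R255K cells. The 6 genes carried 14 WT peaks and 13 R255K peaks. 3 of the 14 WT peaks had no overlapping R255K peak, 1 on *Myc* and 2 on *Mga*, against 47.9% of all 13870 exonic WT peaks. That share is not one of like peaks, since the median −log10 q was 60.9 for the 14 and 24.8 for all. Among exonic WT peaks of like −log10 q, the share without an R255K peak ran from 60.6% for the weakest of the 14 to 0% for the strongest. The lower count on these genes was therefore not read as particular to them. 1 of the 13 R255K peaks, on *Mycn*, had no WT counterpart, against 13.1% of all 8818 exonic R255K peaks. Because each genotype has 1 list, these counts carry no replicate error, and the read depth behind the lists is unknown.

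The core of the m6A consensus is GGAC. It lay within 100 bases of the summit, on the transcript strand, in 10 of the 14 WT peaks and in 13 of the 13 R255K peaks of the 6 genes, against 79% and 82.3% of all exonic summits of the respective list. The sites nearest to the summits are shown for 6 peaks found in both genotypes and for the peak found only in R255K cells, with GGAC in capitals (mm10, 5′ to 3′ on the transcript strand). A match marks letters and not a measured site, because these peaks are 279 to 1247 bp wide.
*Myc* exon 3, coding (chr15:61989827-61989854, plus strand): cacctctgaaaaGGACttattgaggaaa
*Mycn* exon 2, coding (chr12:12940238-12940265, minus strand): cccaccgggggaGGACatctggaagaag
*Mycn* exon 1, 5′ UTR, R255K list only (chr12:12941707-12941734, minus strand): gcagccgccggaGGACaaccccctcccg
*Max* exon 5, 3′ UTR (chr12:76938148-76938175, minus strand): cctctgtttggtGGACtttgtgactctg
*Mnt* exon 2, coding (chr11:74836665-74836692, plus strand): gtcagcacccctGGACtcagcattaagg
*Mga* exon 3, coding (chr2:119917091-119917118, plus strand): ttcaggaaaagaGGACttaggcaaaaag
*Mga* exon 24, coding (chr2:119964113-119964140, plus strand): gaaagatctgaaGGACtcaagcatagag

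The 3 WT peaks without an R255K peak all lay in coding exons. Of these, 2 were on *Mga*, and the 201 bases about their summits are shown because no GGAC lay in either window or anywhere else in those 2 peaks. AAAC or AGAC occurred 3 times in each window. Within 100 bases of the WT summit they also occurred 3 times in *Mga* exon 17 and 4 times in the *Mycl* 3′ UTR. Those peaks were found in both genotypes and held no GGAC so near the summit, and the share over all peaks was not counted. AAAC and AGAC are in capitals (mm10, plus strand).
*Mga* exon 8 (chr2:119923693-119923893): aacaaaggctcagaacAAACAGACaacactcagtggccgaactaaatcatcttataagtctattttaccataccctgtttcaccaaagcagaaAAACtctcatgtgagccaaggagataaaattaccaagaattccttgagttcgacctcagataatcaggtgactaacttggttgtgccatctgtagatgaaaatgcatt
*Mga* exon 15 (chr2:119941485-119941685): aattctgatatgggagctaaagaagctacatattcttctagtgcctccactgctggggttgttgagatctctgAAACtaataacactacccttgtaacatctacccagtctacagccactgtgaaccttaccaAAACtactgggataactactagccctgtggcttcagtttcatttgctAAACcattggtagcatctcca

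On *Myc*, the activator best known as an oncogene, the strongest peak lay across the stop codon (chr15:61989430-61990206), with its WT summit 10 nt past the stop. Its fold enrichment of IP over local background was 11.5 in WT and 10.3 in R255K cells. The second WT peak, in exon 2, was weaker, with 2.69-fold enrichment and 21.9 as its −log10 q, and the R255K list held no peak there. Of all exonic WT peaks whose −log10 q was at most 25% above or 20% below that value, 59.6% had no overlapping R255K peak.

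On *Mycn*, the family member expressed in embryonic and neural cells, both WT peaks had an R255K counterpart. In the last exon the fold enrichment was 5.05 in WT and 5.29 in R255K cells, with the summit 193 nt and 5 nt past the stop codon. In exon 2 it was 3.42 and 2.53. The peak called only in R255K cells, in the 5′ UTR (chr12:12941559-12941837), was weak, with 2.00-fold enrichment and 4.06 as its −log10 q. *Mycl*, the third family member, had a WT peak of 2115 bp in its 3′ UTR with a fold enrichment of 14, and within it the R255K list held a peak of 9.25 and a peak of 7.43. The peak at its 5′ end had a fold enrichment of 7.77 in WT and 4.51 in R255K cells. Its summit lay at −911 nt from the stop codon, in coding sequence, in WT and at −1212 nt, in the 5′ UTR, in R255K cells.

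Each of *Max* and *Mnt* had 1 peak per genotype. In the 3′ UTR of *Max*, the shared partner, the R255K fold enrichment was 3.40 and that in WT 5.49, and in exon 2 of *Mnt* they were 5.03 and 7.61. *Mga* carried 6 WT peaks, a number reached by 0.573% of the 11869 genes at the FPKM minimum, along a spliced transcript of 13931 nt. Its 2 WT peaks without an R255K peak lay in internal exons of 659 and 624 nt, exon 8 (chr2:119923629-119923983, fold enrichment 3.85) and exon 15 (chr2:119941412-119941783, fold enrichment 5.74). Among exonic WT peaks of like −log10 q, 47.8% and 16.1% respectively were without an R255K peak. The other 4 were kept, and in exon 24 the fold enrichment was 12.1 in WT and 18.9 in R255K cells. Over the 11 kept peaks, 7 had a lower fold enrichment in R255K cells, against 70.6% of the 7231 kept exonic peaks. The median ratio of R255K to WT fold enrichment was 0.894 for the kept peaks of the 6 genes and 0.797 for all. 3 of the 4 kept *Mga* peaks were among those with a higher fold enrichment in R255K cells, with ratios of 1.33 in exon 3, 1.12 in exon 17 and 1.57 in exon 24. Their −log10 q went the other way. It was 76.4 in WT and 39.7 in R255K cells in exon 3, 95.5 and 44.0 in exon 17, and 184.9 and 145.9 in exon 24.

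Among the activators at 0 h, *Mycn* was far higher in R255K cells, while *Myc* and *Mycl* differed less. In bulk libraries, fewer cells that express a gene and less of its RNA per cell cannot be told apart. *Mycn* had 61.3 FPKM (59.3 to 63.4) in WT and 164 FPKM (161 to 168) in R255K cells, a ratio of 2.68 (2.58 to 2.79). *Myc* had 49.6 FPKM (47.6 to 51.7) in WT and 55.4 FPKM (53.2 to 57.6) in R255K cells, a ratio of 1.12 (1.05 to 1.18). *Mycl*, the lowest of the family, had 4.59 FPKM (4.10 to 5.12) in WT and 6.13 FPKM (5.53 to 6.77) in R255K cells, a ratio of 1.33 (1.15 to 1.55). The 3 activators together summed to 116 FPKM in WT and 226 FPKM in R255K cells, and most of the difference was *Mycn*. The FPKM of *Mycn* was 1.24 times that of *Myc* in WT and 2.97 times in R255K cells at 0 h.

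The shared partner *Max* had 33.4 FPKM (32.0 to 34.9) in WT and 34.6 FPKM (33.1 to 36.1) in R255K cells, and the interval of its ratio, 0.973 to 1.10, included 1. The repressor partners were lower in R255K cells. *Mnt* had 16.3 FPKM (15.5 to 17.3) in WT and 13.2 FPKM (12.3 to 14.03) in R255K cells, a ratio of 0.806 (0.740 to 0.876), on chromosome 11, where the median gene was higher. *Mxd3* had 6.25 FPKM (5.51 to 7.06) and 4.24 FPKM (3.60 to 4.95), a ratio of 0.678 (0.552 to 0.830). *Mxd3* rests on few counts, 258 and 157, and shares 105 exon bases with *Prelid1* on the opposite strand, which had 4243 and 4159 counts. Whether the counting used strand is not stated, so reads from the shared bases cannot be assigned. *Mga*, the scaffold of PRC1.6, showed the lowest ratio, with 12.5 FPKM (12.1 to 13.0) in WT and 4.65 FPKM (4.38 to 4.93) in R255K cells, a ratio of 0.371 (0.346 to 0.397).

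In WT cells the order from high to low was *Mycn*, *Myc*, *Max*, *Mnt*, *Mga*, *Mxd3* and *Mycl*, and no interval overlapped that of its neighbour. In R255K cells it was *Mycn*, *Myc*, *Max*, *Mnt*, *Mycl*, *Mga* and *Mxd3*, with overlapping intervals for *Mga* and *Mxd3* only. On the scale of log2(FPKM + 1), 1 of the 7 genes, *Mycn* at 1.41, was over 1.5-fold higher in R255K cells, against 17% of the 11869 genes. Likewise 1 of 7, *Mga* at −1.26, was over 1.5-fold lower, against 15.7% of them. The median of the 7 log2 ratios was 0.05 and that of all genes also 0.05. The background itself moved with the scaling: DESeq2 size factors put 13.0% of genes higher and 18.4% lower, and ribosomal protein genes 13.2% and 21.03%. Scaling to *Gapdh*, which ranged from 242 to 2357 counts over the libraries, put 83.8% higher and 1.06% lower, with *Mga* at 0.00, *Mnt* at 1.07 and *Mxd3* at 0.76.

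Base composition moved with these ratios. *Mga* has the most AT-rich exons of the 7 genes, with 42.0% GC, and the 1663 other genes within 2 points of that GC content had a median log2 ratio of −0.37, with 33.0% of them over 1.5-fold lower. The log2 ratio of *Mga*, −1.26, was below that of 95.1% of these genes, and it was −0.88 after the GC trend was removed. *Mycn*, with 54.9% GC, lay above 96.5% of 2397 genes of like GC, whose median was 0.23, and kept 1.16 after removal of the trend. *Mnt* and *Mxd3* are GC-rich, at 59.4% and 56.9%, and genes like them were higher in R255K cells, with medians of 0.31 and 0.27. Without the trend *Mnt* stood at −0.61 and *Mxd3* at −0.75, both then over 1.5-fold lower, as were 13.1% of all genes. *Myc* passed to −0.09 and *Mycl* to 0.08.

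**Figure D1:**
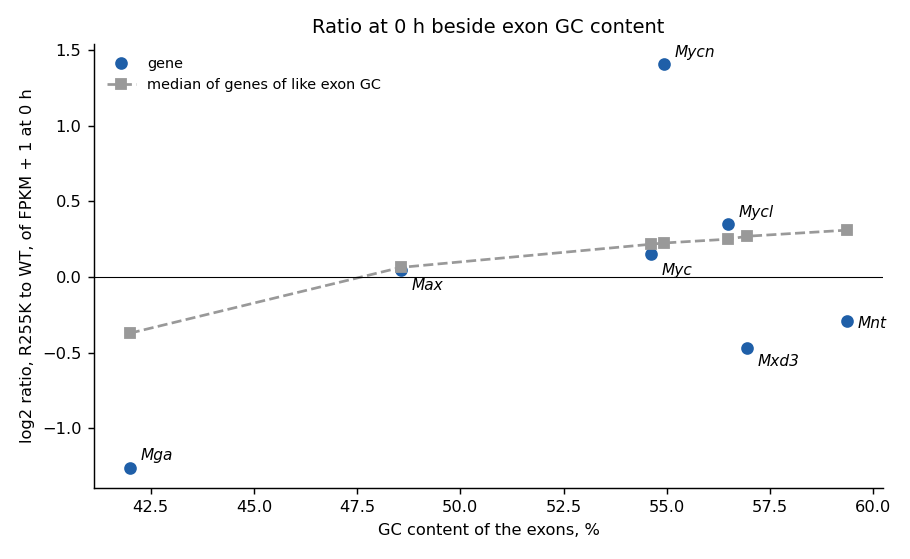
Log2 ratio of R255K to WT at 0 h on the scale of FPKM + 1 (y axis) against the GC content of the exons in percent (x axis). Circles are the 7 genes, and squares are the median of the other tested genes within 2 points of the same GC content. *Mycn* at 1.41 stands above its square, and *Mga* at −1.26, *Mnt* at −0.29 and *Mxd3* at −0.47 stand below theirs.

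Actinomycin D separated *Myc* and *Mycn* from the other genes. In WT cells *Myc* went from 49.6 FPKM at 0 h to 1.74 FPKM at 4 h and 1.17 FPKM at 8 h. In R255K cells it went from 55.4 to 3.03 and 1.76 FPKM. At 4 h 3.51% (2.74 to 4.45) of *Myc* was left in WT and 5.47% (4.61 to 6.44) in R255K cells, with intervals that do not overlap. At 8 h the shares were 2.36% (1.71 to 3.18) and 3.18% (2.55 to 3.93), and these intervals overlap. In R255K cells as in WT, *Myc* thus stayed among the least retained transcripts, since 0.247% of genes had less left at 4 h in R255K and 0.519% in WT cells.

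*Mycn* parted from *Myc* in R255K cells. In WT cells it went from 61.3 FPKM to 2.53 and 1.58 FPKM, and in R255K cells from 164 FPKM to 32.0 and 18.1 FPKM. The share left at 4 h was 4.13% (3.43 to 4.94) in WT and 19.5% (18.5 to 20.5) in R255K cells, and at 8 h it was 2.58% (2.01 to 3.26) and 11.02% (10.3 to 11.7). The level at 4 h was 12.6 times (10.5 to 15.3) higher in R255K cells, and at 8 h 11.4 times (9.01 to 14.7). *Mycn* reached 10.6 times the FPKM of *Myc* at 4 h and 10.3 times at 8 h in R255K cells, against 1.45 and 1.35 times in WT cells.

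*Mycl* and *Max* were retained longer in R255K cells at 8 h. *Mycl* went from 4.59 FPKM to 2.02 and 0.628 FPKM in WT and from 6.13 FPKM to 5.27 and 3.86 FPKM in R255K cells. At 8 h 13.7% (9.36 to 19.4) of it was left in WT and 62.9% (53.9 to 73.5) in R255K cells. *Max* went from 33.4 FPKM to 13.9 and 4.97 FPKM in WT and from 34.6 FPKM to 19.7 and 15.4 FPKM in R255K cells. Its share at 8 h was 14.9% (13.0 to 17.0) in WT and 44.5% (41.3 to 48.0) in R255K cells.

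*Mnt* and *Mxd3*, the repressor partners, differed less between the genotypes. *Mnt* went from 16.3 FPKM to 3.22 and 2.03 FPKM in WT and from 13.2 FPKM to 3.67 and 2.60 FPKM in R255K cells. Its share at 8 h was 12.4% (10.3 to 14.9) and 19.7% (17.0 to 22.8). *Mxd3* went from 6.25 FPKM to 2.31 and 1.56 FPKM in WT and from 4.24 FPKM to 2.13 and 1.12 FPKM in R255K cells. Its intervals overlapped at both times, with 24.9% (18.1 to 33.8) left at 8 h in WT and 26.5% (18.9 to 36.6) in R255K cells.

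For *Mga* the curves of the genotypes ran in opposite directions from 0 to 4 h. It went from 12.5 FPKM to 3.53 and 0.604 FPKM in WT cells and from 4.65 FPKM to 7.48 and 3.78 FPKM in R255K cells. At 4 h 28.2% (26.1 to 30.4) was left in WT, whereas R255K cells had 161% (150 to 173) of their 0 h level. At 8 h 4.82% (4.01 to 5.76) was left in WT and 81.3% (74.7 to 88.4) in R255K cells. The median gene of like GC had 75.5% left at 4 h in WT and 116% in R255K cells, and 64.6% of these genes exceeded 100% in R255K cells. With the GC trend removed from the R255K 0 h library, 124% of *Mga* was present at 4 h. From a ratio of 0.371 at 0 h, *Mga* stood at 2.12 times (1.95 to 2.30) the WT level at 4 h and 6.25 times (5.20 to 7.57) at 8 h.

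**Figure D2:**
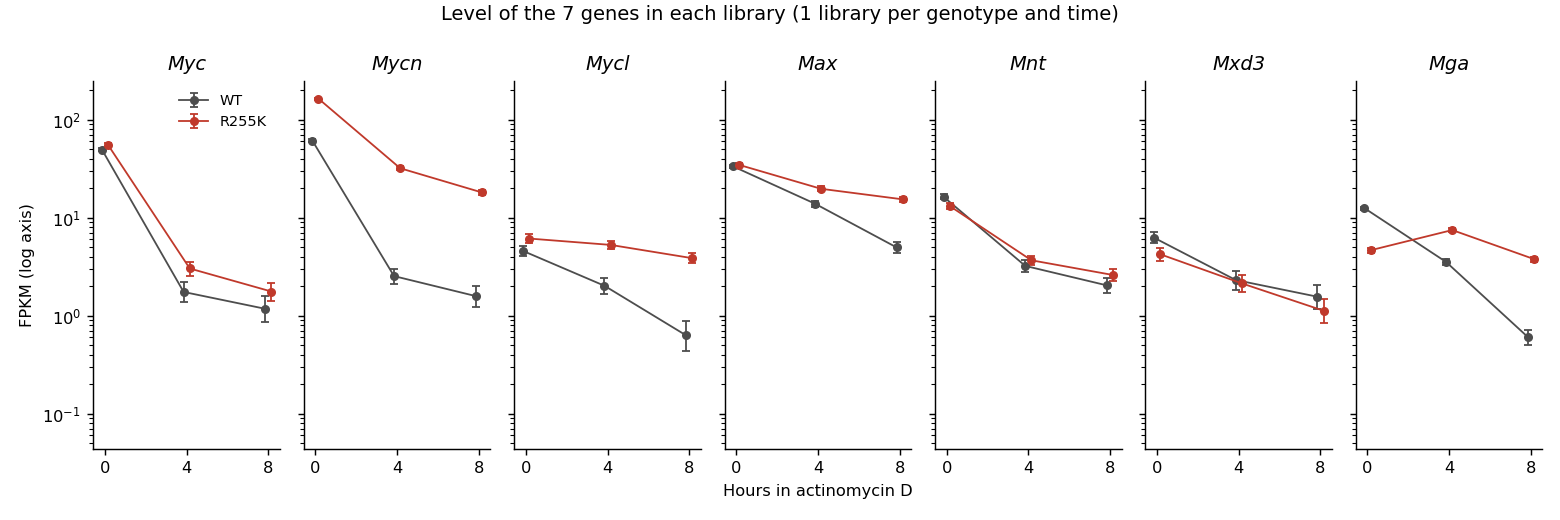
FPKM on a log axis (y axis) against hours in actinomycin D (x axis) for the 7 genes in WT (grey) and R255K cells (red), 1 library per point, with 95% Poisson intervals that cover counting error. The *Mycn* lines are apart at all 3 times, the *Myc* and *Mxd3* lines lie close together, and the *Mga* lines cross between 0 and 4 h.

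Read against all genes, the share left at 4 h was over 1.5-fold higher in R255K cells for 4 of the 7 genes (*Myc* 1.56, *Mycn* 4.71, *Mycl* 1.96 and *Mga* 5.71), while this held for 31.8% of 11760 genes. At 8 h 5 of the 7 were over 1.5-fold higher (*Mycn* 4.27, *Mycl* 4.60, *Max* 2.99, *Mnt* 1.58 and *Mga* 16.8), with 44.5% of all genes. None of the 7 was over 1.5-fold lower at 4 h or at 8 h, against 6.33% and 9.08% of all genes. Under TMM and DESeq2 scaling *Myc* was at 1.37 and 1.39 at 4 h, which leaves 3 of the 7, and *Mnt* was at 1.21 and 1.13 at 8 h, which leaves 4. Of all genes, 33.2% under TMM and 30.6% under DESeq2 scaling were over 1.5-fold higher at 8 h, and the shares at 4 h were not computed. Under the library total, the ratio of *Mga* at 8 h was exceeded by 0.272% of genes. In WT cells every one of the 7 lay below the median share left of all genes, which was 88.7% at 4 h and 65.2% at 8 h. In R255K cells the medians were 96.5% and 92.1%, and all 7 were below them except *Mga* at 4 h.

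**Figure D3:**
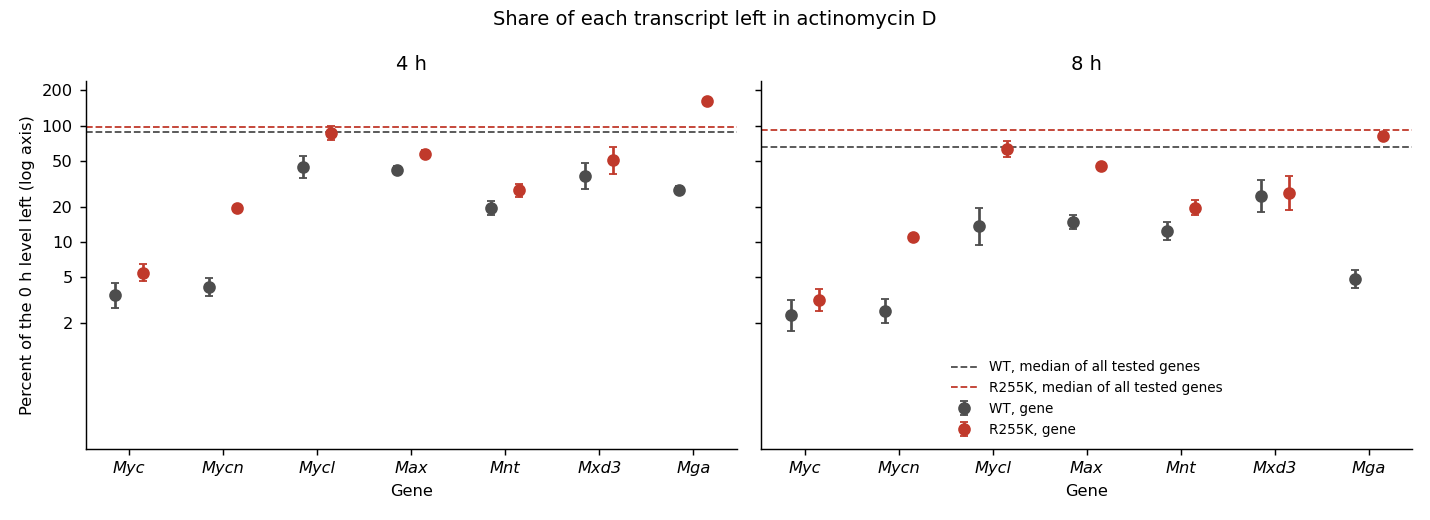
Percent of the 0 h level left on a log axis (y axis) for each of the 7 genes (x axis) at 4 h and 8 h in WT (grey) and R255K cells (red), 1 library each, with 95% counting intervals. Dashed lines are the medians of all tested genes in each genotype. *Myc* stays under 6% in both genotypes, *Mycn* is at 19.5% and 11.02% in R255K cells, and *Mga* in R255K cells is at 161% at 4 h.

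Half-lives were taken from the mean decay constant over both intervals from 0 h. In WT cells the shortest were those of *Myc*, 1.06 h (1.01 to 1.12), and *Mycn*, 1.11 h (1.06 to 1.16). *Mga* followed with 1.99 h, *Mnt* with 2.08 h, *Max* with 3.03 h, *Mycl* with 3.05 h and *Mxd3* with 3.28 h. Of the 5504 genes with a half-life in both genotypes, 1.05% had a shorter one than *Myc* in WT cells and 1.56% a shorter one than *Mycn*. In R255K cells the half-life was 1.20 h for *Myc* and 2.02 h for *Mycn*, and that of *Mycl* was 14.5 h, with an interval from 9.74 to 28.6 h. A single rate did not describe the WT curves of *Myc*, *Mycn*, *Mnt* and *Mga*. Their shares left over 0 to 4 h and over 4 to 8 h had intervals that do not overlap, whereas those of *Mycl*, *Max* and *Mxd3* overlap. From 4 to 8 h alone, WT half-lives were longer for *Myc* (6.98 h), *Mycn* (5.90 h), *Mnt* (6.05 h) and *Mxd3* (7.05 h). They were shorter for *Mga* (1.57 h), *Mycl* (2.38 h) and *Max* (2.69 h). The counting intervals of the half-lives do not cover a change of rate with time.

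3 of the 6 genes with a half-life in both genotypes had a ratio of R255K to WT over 1.5, namely *Mycl* at 4.76 (2.84 to 8.00), *Max* at 1.89 (1.69 to 2.12) and *Mycn* at 1.83 (1.74 to 1.92). The ratio was over 1.5 for 68.8% of all genes with a half-life. The other 3 were *Mnt* at 1.28 (1.15 to 1.41), *Mxd3* at 1.25 (0.915 to 1.71) and *Myc* at 1.13 (1.05 to 1.21). None was under 1/1.5, as were 5.78% of all genes. The median of the 6 was 1.55 and that of all genes 1.98, so the 6 do not stand above the series. *Mga* had a half-life of 1.99 h in WT and no decay constant above 0 in R255K cells, as had 1655 genes in all. Scaling to *Gapdh* put the ratio below 1 for 5 of the 7 genes and left *Mycn* at 1.02 and *Mga* at 1.89, with a median of 0.60 for the 7 genes and 0.54 for all genes.

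**Figure D4:**
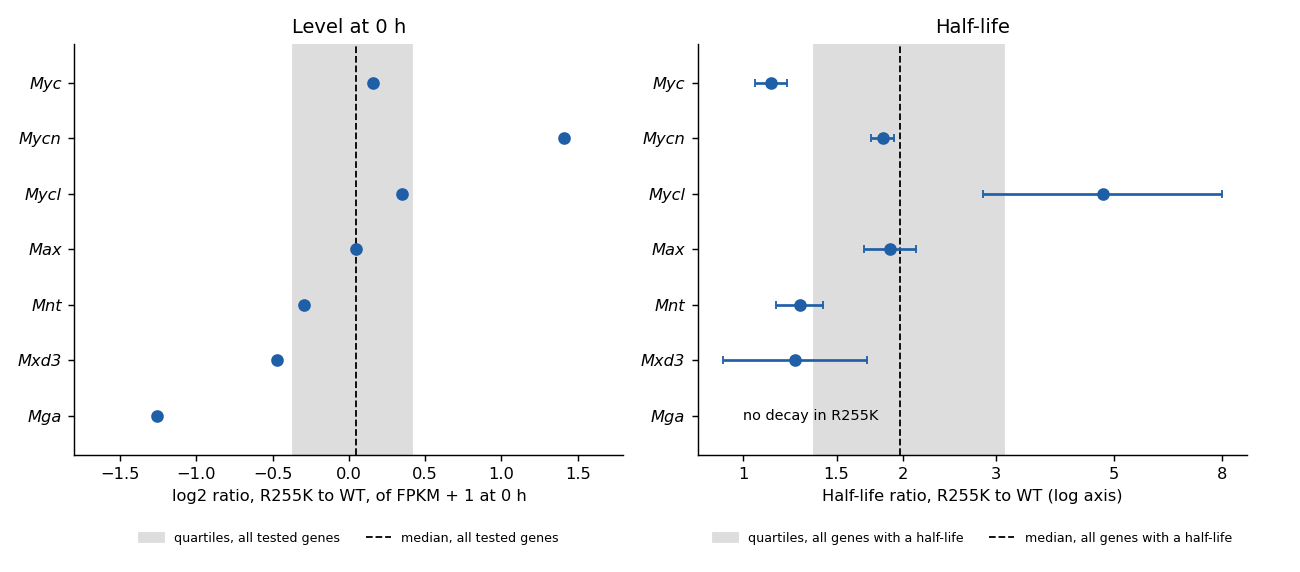
Left, log2 ratio of R255K to WT at 0 h on the scale of FPKM + 1. Right, ratio of R255K to WT half-life on a log axis with 95% counting intervals, for each of the 7 genes (y axis). The grey band and dashed line are the quartiles and median of all genes with a value. *Myc*, *Mnt* and *Mxd3* lie below the lower quartile of the half-life ratio, 1.36, and *Mycl* lies above the upper one, 3.11.

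The interval from 4 to 8 h does not use the 0 h libraries and gave a different picture for *Myc* and *Mycn*. Of the *Myc* present at 4 h, 67.2% (45.1 to 99.3) was left at 8 h in WT and 58.2% (44.3 to 75.9) in R255K cells. For *Mycn* these shares were 62.5% (46.1 to 84.2) and 56.6% (52.5 to 60.9). The half-life ratios over this interval were 0.732 and 0.826, below 1, and the intervals of the shares overlap for both genes.

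The other genes split in the same interval. *Max* had 35.7% (30.8 to 41.3) of its 4 h level left in WT and 78.0% (71.9 to 84.7) in R255K cells, a half-life ratio of 4.15. *Mycl* had 31.1% (20.7 to 45.6) and 73.1% (62.7 to 85.3), a ratio of 3.73. *Mga* had 17.1% (14.1 to 20.7) and 50.5% (46.9 to 54.4), a ratio of 2.58, so it decayed in both genotypes after 4 h. *Mnt*, at 63.2% (50.5 to 78.9) and 70.7% (59.3 to 84.1), and *Mxd3*, at 67.5% (46.6 to 96.9) and 52.6% (36.5 to 74.9), had overlapping intervals. Over this interval the median ratio of all genes was 2.40.

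Peaks and half-life ratios of the genes can be set side by side. *Max* and *Mnt* each kept their single peak at a fold enrichment 0.619 and 0.660 times that in WT cells, and their half-life ratios were 1.89 and 1.28. *Mycn* kept its last exon peak at 1.05 and its exon 2 peak at 0.739 times the WT fold enrichment, gained a weak 5′ UTR peak, and had a ratio of 1.83. *Myc*, which kept its stop codon peak at 0.894 times the WT fold enrichment and lacked the weak exon 2 peak, had 1.13. *Mycl* kept both of its peaks at 0.580 and 0.661 times the WT fold enrichment and had 4.76. *Mxd3* without a peak had 1.25. These are values of 6 genes from single libraries and lists, and no relation was tested.

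The 3′ UTRs were searched for a decay motif that the choice of the genes did not use. ATTTA, the core of AU-rich decay elements, occurred 2 times in the 442 nt of the *Myc* 3′ UTR, 1 time in the 913 nt of *Mycn*, 2 times in the 1970 nt of *Mycl*, 1 time in *Max* (1299 nt) and *Mnt* (2405 nt), 5 times in *Mga* (4616 nt) and 0 times in *Mxd3* (615 nt). Of 10338 3′ UTRs, 66.5% held it at least 1 time, searched on the transcript strand. Among 3′ UTRs of like length this share was 48.5% for *Myc*, 58.6% for *Mxd3*, 71.6% for *Mycn* and 81.2% for *Max*. It was 91.0% for *Mycl*, 93.9% for *Mnt* and 99.2% for *Mga*. At least as many matches were held by 18.5% of those like *Myc* and 80.1% of those like *Mga*.

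The genes whose curves were most like those of *Myc*, *Mycn*, *Max* and *Mga* were taken from all 11869 genes. The measure was the root mean square difference of log2(FPKM + 1) over the 6 libraries, after subtraction of each gene's mean. For *Myc* they were *Aunip*, *Cited2* and *Socs3*, with differences of 0.21 to 0.23. *Socs3*, a feedback inhibitor of LIF signalling, went from 82.6 FPKM to 2.26 and 1.95 FPKM in WT and from 54.6 FPKM to 3.72 and 2.19 FPKM in R255K cells. For *Mycn* no gene came as near, and the nearest were *Lefty1*, *Smg8* and *Tmem11* at 0.41 to 0.47. *Lefty1*, a Nodal antagonist, went from 22.8 FPKM to 1.78 and 0.700 FPKM in WT and from 58.4 FPKM to 14.4 and 7.74 FPKM in R255K cells. *Max* had close neighbours in *Zbtb22*, *Cdc25a* and *Trim6*, at 0.08 to 0.09. The neighbours of *Mga* were *Esf1*, *Setd2* and *Senp6*, at 0.14 to 0.17, and *Setd2*, an H3K36 methyltransferase, went from 11.8 FPKM to 3.77 and 0.505 FPKM in WT and from 4.76 FPKM to 9.26 and 4.92 FPKM in R255K cells.

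Known MYC-induced target genes were a list of 30, all above the FPKM minimum. At 0 h 6 were over 1.5-fold higher in R255K cells and 1 was lower, against 17% and 15.7% of all genes, and the median of their log2 ratios was 0.29 beside 0.05 for all genes. 6 of the 30 lie on chromosome 11, and they held 3 of the 6 higher genes. *Pes1*, *Mybbp1a* and *Nme1*, named here after their values were seen, had log2 ratios of 1.02, 0.89 and 0.83. The 24 targets on other chromosomes had a median of 0.13, with 3 higher and 1 lower. *Ccnd2*, a G1 cyclin, went from 1.15 FPKM in WT to 7.90 FPKM in R255K cells at 0 h. The most abundant targets differed less, with log2 ratios of −0.43 for *Npm1*, a nucleolar chaperone, −0.20 for *Ptma*, −0.03 for *Hspd1*, a mitochondrial chaperone, and 0.12 for *Pkm*, a glycolytic enzyme.

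Of the 14 PRC1.6 partners of MGA and MAX, 1 was over 1.5-fold higher and 3 were lower in R255K cells at 0 h, against 17% and 15.7% of all genes, and the median of their log2 ratios was −0.14. The 3 lower ones, named after their values were seen, were *Hdac2* at −1.41, *Rnf2* at −1.20 and *Cbx3* at −0.98, and their exons hold 41.0%, 40.0% and 42.6% GC, near that of *Mga*, where 33.0% of genes were lower. *Rybp*, a subunit that stimulates the ubiquitin ligase of the complex, had 29.6% left at 4 h in WT and 89.1% in R255K cells, and a half-life ratio of 8.85 (5.86 to 13.4). The 13 coactivators of MYC had 2 higher and 0 lower genes, beside the same shares of all genes. *Cdk9*, the kinase that releases paused polymerase, went from 25.3 to 49.7 FPKM and had a half-life ratio of 3.71 (3.04 to 4.53).

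The 10 corepressors of MNT and MXD had 1 higher and 1 lower gene at 0 h, against 17% and 15.7% of all genes. *Sin3a*, their scaffold, had 47.8 FPKM in WT and 36.5 FPKM in R255K cells and a half-life ratio of 1.73 (1.63 to 1.85). *Ncor1* had 32.3 and 19.2 FPKM and a ratio of 5.30 (4.26 to 6.60). Of the 14 genes of MYC protein turnover 2 were higher and 3 lower, beside the same shares. *Aurka*, a kinase that stabilises MYCN protein, had 69.7 FPKM in WT and 86.8 FPKM in R255K cells, with a half-life ratio of 1.98 (1.81 to 2.163). *Usp7*, a deubiquitinase, had 83.8 and 48.1 FPKM. None of these counts at 0 h was read as particular to its list, nor was the share of genes with a half-life ratio over 1.5, since 68.8% of all genes had one.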

How the data were processed

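The deposited counts are whole reads per gene without normalization, 1 library per genotype and time. The authors discarded reads on rRNA with Bowtie2 2.2.6, used HISAT2 for alignment to mm10, and filtered with Picard 2.16.0 and SAMtools 0.1.09. The counting tool, its annotation and its strand setting are not given in the sources used here. Peaks were called by the authors with MACS2, and per the file layout the deposited lists give fold enrichment (a ratio), −log10 q and summits. How the IP and input libraries were combined is not stated. Exon lengths were those deposited with the counts.

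FPKM was computed from the counts, the summed counts of each library and exon length, and log2 ratios used a pseudocount of 1. The study refers to an earlier report for its lifetime calculation, and here the decay constant averages those from 0 to 4 h and from 0 to 8 h. Half-life ratios carry delta-method intervals. Ratios and shares left carry exact conditional binomial intervals. Genes entered at a mean of at least 1 FPKM at 0 h, and shares left also needed 3 counts at 0 h in both genotypes. A call means a difference over 1.5-fold. Peaks overlapped by at least 1 bp (bedtools 2.31.1) and were placed on GENCODE vM21, whose build matches the files (0 exons or peaks past a chromosome end). Sequences came from the RefSeq GRCm38 (mm10) assembly through pysam 0.24.0. The sequence of 1 peak is not reported here. Tables used pandas 2.3.3 and numpy 2.4.6 in Python 3.11.15, intervals scipy 1.17.1, the GC trend statsmodels 0.14.6, plots matplotlib 3.10.9, and scaling factors edgeR 4.0.16 and DESeq2 1.42.0 in R 4.3.3. No count test was run, because each group has 1 library. The half-life code was tested on simulated data.

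The members, the 11 gene lists and the comparisons were chosen with earlier results of these data known. Named genes are the 7 members, from each list up to 4 of the highest mean FPKM and those of the highest and lowest half-life ratio, and the nearest 3 by profile of *Myc*, *Mycn*, *Max* and *Mga*, with *Mettl14* and *Gapdh* as checks. Exceptions are marked in the text.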

Additional observations from a re-analysis of the deposited data

Results flagged for a closer look

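*Mga* and *Usp7* were singled out because their levels went in opposite directions in the genotypes from 0 to 4 h in actinomycin D, with counting intervals that exclude 100% in each. Only the 7 members and the genes picked from the lists by level or half-life ratio were searched, and the share over all genes was not counted. Outside the search, *Rnf2* was at 80.8% in WT and 167% in R255K cells, and *Cbx3* at 86.9% and 171%, without intervals. Both were named after their values were seen, so the movement was not read as particular to *Mga* and *Usp7*. *Mga* was at 28.2% of its 0 h level in WT and at 161% in R255K cells. *Usp7* was at 91.6% (89.1 to 94.2) in WT and at 105% (101 to 109) in R255K cells. With 1 library per genotype and time the difference between the genotypes was not tested. For *Mga* the directions stayed opposite under 5 of 6 scalings of the libraries (the library total included), and under scaling to *Gapdh* it was at 99.6% in WT and 80.5% in R255K cells. For *Usp7* these directions held under the library total only, 1 of 6, and under scaling to *Gapdh* they were swapped, at 324% in WT and 52.5% in R255K cells. With the GC trend removed from the R255K 0 h library, *Mga* was at 124% and *Usp7* at 98.6% in R255K cells.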

How the results depend on the processing

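No paired analysis was possible because the MeRIP-seq replicates, which share numbers across genotypes, were deposited as 1 peak list per genotype, and the actinomycin D groups have 1 library each. For the same reason no library could be left out. The shares left were recomputed under scalings chosen after seeing the data. Of 68 recomputed summaries, 55 stayed within 1.5 times the reported value. The values of single genes moved more often. Of these, 102 recomputed values stayed within the counting interval of the reported one and 69 left it. Another 16 reversed a difference whose interval excluded no change. For log2 ratios at 0 h the interval was that of the ratio without the pseudocount. The reported log2 ratio of *Mga*, −1.26, lies outside its interval, so these counts are approximate. The cause of the changes below was not tested.

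The scaling gene *Gapdh* changed most. Under it 6 genes were over 1.5-fold higher and 0 lower at 0 h, 1 half-life ratio was over 1.5 and 4 were under 1/1.5, the median half-life ratio was 0.60, and 0 genes had over 1.5-fold more left at 4 h in R255K cells. Of all genes under this scaling, 83.8% were higher and 1.06% lower at 0 h. Of all half-life ratios, 2.17% were over 1.5 and 63.6% under 1/1.5. The half-life ratio was then 0.739 for *Myc*, 0.596 for *Mycl*, 0.457 for *Max* and 0.549 for *Mnt*. The ratio of the share left at 4 h was 0.220 for *Myc*, 0.667 for *Mycn*, 0.277 for *Mycl*, 0.194 for *Max*, 0.200 for *Mnt* and 0.808 for *Mga*. The log2 ratio at 0 h was 1.07 for *Mnt*, 0.76 for *Mxd3* and 0.00147 for *Mga*. *Gapdh* moved the median log2 ratio of all genes at 0 h to 1.31 and ribosomal protein genes to −0.09.

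Scaling to ribosomal protein genes gave 2 lower genes at 0 h, against 21.03% of all genes, and 7 with more left at 4 h. Scaling to genes without a WT peak also gave 7 at 4 h, and the share of all genes at 4 h was not computed under either. With the GC trend removed, 3 genes were lower at 0 h, *Myc* had a log2 ratio of −0.085, and 6 of 7 half-life ratios were over 1.5, with *Mga* at 135.5 from an R255K half-life of 270.1 h and *Mycl* at 18.1. Of all genes without the trend, 13.1% were lower at 0 h, and 75.2% of all half-life ratios were over 1.5. From 4 to 8 h alone, 1 ratio was under 1/1.5 (*Mxd3*, 0.612), against 7.62% of all genes. *Myc* and *Mycn* stood at 0.732 and 0.826. From 8 h alone *Mga* had a ratio of 14.6. When 50% of each WT peak had to be covered, 5 WT peaks were without an R255K peak, against 57.0% of all exonic WT peaks. When an R255K summit had to lie within 200 bp, 4 were without one, against 51.3% of all. *Mga* gave no half-life in R255K cells under the other scalings or from 4 h alone.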

Other observations

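In the wider MAX and MLX network, 4 of 6 genes reached the FPKM minimum, and none of the 4 was over 1.5-fold higher or lower at 0 h. *Mxd1*, another repressor partner of MAX, had 16.6% left at 4 h in WT and 26.5% in R255K cells, with a half-life ratio of 1.19 (0.917 to 1.53). *Mxi1*, the MXD2 gene, had 58.1% left at 8 h in WT and 85.0% in R255K cells. *Mlx*, the MAX-like partner of the glucose-responsive MLXIP, had 29.2 FPKM in WT and 38.5 FPKM in R255K cells at 0 h and lies on chromosome 11. *Mlxip* had 45.0% left at 8 h in WT and 82.4% in R255K cells, with a half-life ratio of 2.74 (1.75 to 4.29).

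Among other short-lived mESC transcripts, *Sox2* had 6.96% left at 4 h in WT and 7.06% in R255K cells, with a half-life ratio of 0.991 (0.955 to 1.03). *Zfp42* had 13.3% and 43.7% left at 4 h, with a ratio of 2.156 (2.08 to 2.23).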
